A study of Acacia koa with 4 samples.

Results

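Ferritin-3 (A8737) and ferritin-1 (A201730) are the transcripts of koa whose deposited description names a ferritin, and they were 2 of the 4000 transcripts on the array. The description of A8737 is that of a cowpea ferritin-3 and the description of A201730 that of a soybean ferritin-1, so both names rest on similarity to proteins of other legumes. They were chosen by their description and with their intensities in these 4 pools known, ferritin-3 for its difference between stressed and unstressed pools. Their levels, differences and ranks are therefore given as a description, with no test.

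The study asked which transcripts of Acacia koa, a Hawaiian tree of the legume family, respond to a mechanical stimulus. The stressed seedlings had their stems bent by hand towards the cardinal directions without being wounded, and the unstressed seedlings were left unbent. Each group held 2 pools of about 20 seedlings, and each pool was measured on 1 array. Whole seedlings were powdered, so an intensity is an average over all organs in the pool. The sources used here give neither the age of the seedlings nor how long after bending they were frozen. Fewer cells of a type and less RNA per cell cannot be told apart in such pools. The labels do not say whether the pools of a group were grown apart, so the spread between them may be partly technical.

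Ferritin is a hollow protein shell that takes up ferrous iron, oxidises it and stores it as a mineral. In plants it lies mainly in plastids, is made from nuclear genes and is imported. By holding iron away from hydrogen peroxide it limits the formation of hydroxyl radicals. In Arabidopsis and soybean, ferritin transcripts rise with iron supply, and in legumes ferritin is abundant in seeds and young root nodules.

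Ferritin-3 was bright in all pools but far less so in bent seedlings. Its RMA intensity, a background-corrected and normalised brightness on a linear scale, was 7570 and 6487 in stressed replicates 1 and 2, against 23064 and 20983 in unstressed replicates 1 and 2. Both stressed pools lay well below both unstressed pools, and the groups did not overlap. The stressed pool closest to the unstressed pools was still 2.77-fold dimmer than the nearer of them, and the pair farthest apart differed 3.56-fold. Within a group the pools were much closer, 1.17-fold apart in stressed and 1.10-fold apart in unstressed seedlings. Of all transcripts, 70.7% had stressed pools at least this close and 35.6% had unstressed pools at least this close. On the log2 scale ferritin-3 was at 12.77 ± 0.16 in stressed and 14.43 ± 0.10 in unstressed pools (SD, n = 2 each). The log2 difference of −1.65 corresponds to a level 3.14-fold lower in stressed seedlings.

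Ferritin-1 was dim in all pools. Its intensity was 135 and 125 in stressed replicates 1 and 2, against 168 and 158 in unstressed replicates 1 and 2. Here too both stressed pools were below both unstressed pools, but the gap between the nearest pools was 1.17-fold only. On the log2 scale it was at 7.02 ± 0.08 in stressed and 7.35 ± 0.06 in unstressed pools (SD, n = 2 each), a log2 difference of −0.33, or 1.25-fold lower in stressed seedlings. The lowest transcript of each array had an intensity of 44.2 to 45.5, and 5% of transcripts lay below 95.8 to 103. No detection call accompanies the intensities, so ferritin-1 lay near the dim end of the scale with no statement on whether it was detected, and a fold between values this dim may be understated. The log2 difference of ferritin-3 minus that of ferritin-1 was −1.32. Both transcripts were read by 18 probes each. Probe sequences were not used here, and whether RNA of one ferritin binds probes of the other was not tested.

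**Figure D1:**
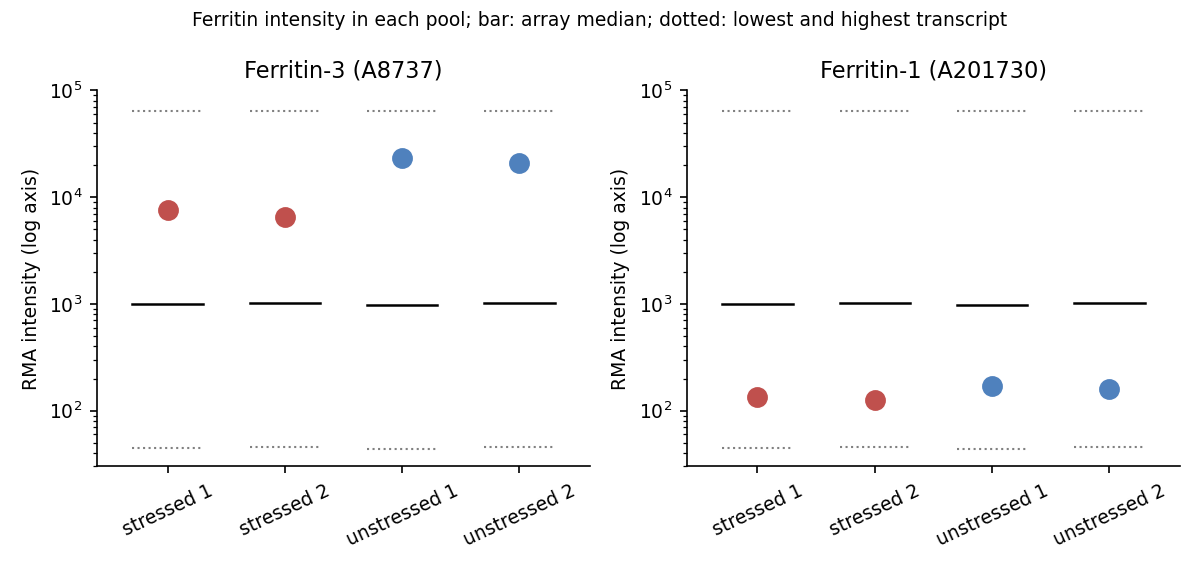
RMA intensity (log axis) of ferritin-3 and ferritin-1 in each of the 4 pools, 1 point per pool, with the median of all transcripts on that array as a solid bar and the lowest and highest transcript as dotted bars. Ferritin-3 lies above the array median in every pool, at 6487 to 7570 in stressed and 20983 to 23064 in unstressed pools, and ferritin-1 lies below it in every pool.

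The ranks among all transcripts show the same contrast. Ferritin-3 was the 284th and 370th brightest transcript in stressed replicates 1 and 2, against the 60th and 73rd in unstressed replicates 1 and 2. By group means it stood at rank 319 in stressed and rank 68 in unstressed seedlings. It was brighter than 92.9% and 90.8% of transcripts in the stressed pools, and than 98.5% and 98.2% in the unstressed pools. Ferritin-1 had rank 3729 and 3750 in the stressed pools and rank 3647 and 3642 in the unstressed pools. It was thus brighter than 6.25% to 6.78% of transcripts in stressed seedlings and than 8.83% to 8.95% in unstressed seedlings. Brightness also depends on how well a transcript's probes bind, so these ranks order intensities and not amounts of RNA, and the ranks of the 2 ferritins do not say that one RNA was more abundant.

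Ordered by log2 difference from the lowest, ferritin-3 was at rank 1 and ferritin-1 at rank 193 of 4000. The median log2 difference of all transcripts was −0.04 and their range was −1.65 to 4.17. Ferritin-3 sets the lower end of this range. With limma's adjusted p under 0.05 as the threshold, 1 of the 4000 transcripts was called lower in stressed seedlings (0.025%) and 37 were called higher (0.925%). The 1 called lower was ferritin-3, and nothing further is read from a call that was among the reasons for choosing it. No transcript was called lower without stressed replicate 1, without stressed replicate 2 or without unstressed replicate 1. Without stressed replicate 1, 10 transcripts were called higher, and without stressed replicate 2, 8 were. Both stressed pools lay below both unstressed pools in 779 transcripts (19.5%), the ferritins included, so this feature alone does not set ferritin-1 apart. A gap of at least 2-fold between the nearest pools was present in 1 transcript (0.025%), again ferritin-3.

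**Figure D2:**
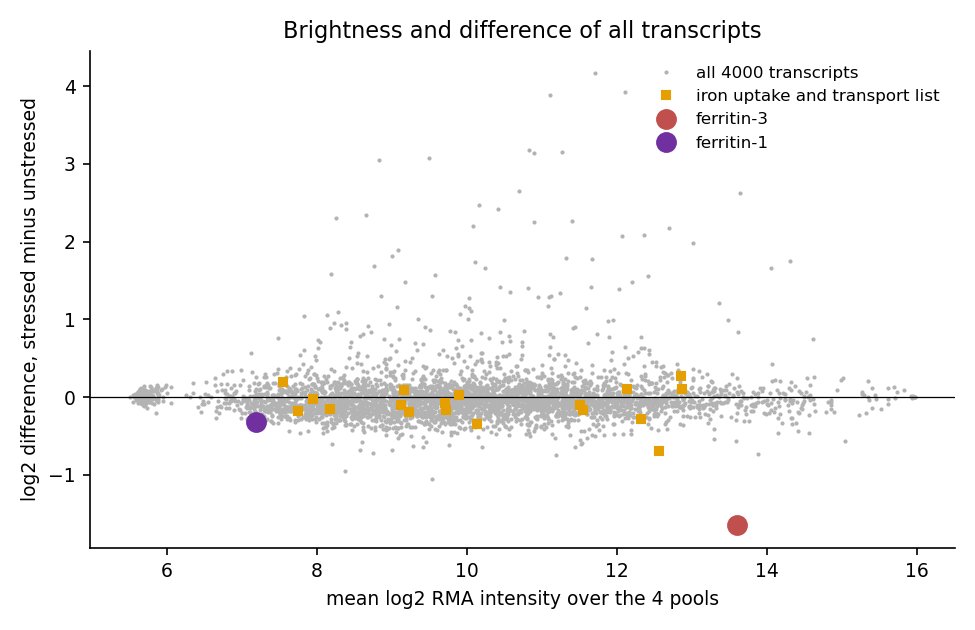
Log2 difference, stressed minus unstressed, against the mean log2 RMA intensity over the 4 pools, 1 point per transcript. Ferritin-3 is the lowest point, at −1.65 among bright transcripts, and ferritin-1, at −0.33, lies at the dim end near the lower edge of the other points.

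After ferritin-3, the next lowest log2 differences were much smaller in size. A putative nodulin (A268015) had 513 and 517 in stressed pools against 1261 and 901 in unstressed pools, a log2 difference of −1.05 (limma adjusted p = 0.17). Nodulins were named for their presence in root nodules and are of many kinds, which in Arabidopsis include relatives of vacuolar iron transporters, and the description does not say of which kind A268015 is. A salicylic acid methyl transferase-like transcript (A385452) was at −0.96 with overlapping groups, since 276 in stressed replicate 1 exceeded 270 in unstressed replicate 1 while unstressed replicate 2 stood at 782. The others among the 10 lowest were at −0.74 to −0.65. They were a cellulose synthase (A103931), an acidic chitinase (A2721), a nucleic acid and zinc ion binding protein (A580528), an oligopeptide transporter (A35501), an adenosylhomocysteinase (A139246), a pectinesterase (A244101) and the auxin-induced protein 5NG4 (A247811). None of these 9 passed limma's threshold, with adjusted p-values from 0.17 to 0.99.

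Likeness of pattern was measured as the Euclidean distance between log2 intensities over the 4 pools, after the mean over the pools was taken off each transcript. A distance over 4 values, ranked over all transcripts, tends to give close neighbours for a transcript with a small difference. The 5 nearest to ferritin-3 were A268015 (distance 0.67), A103931 (0.97), A2721 (0.98), A35501 (0.99) and A244101 (1.03), all taken from the lowest differences given above. None was close, as ferritin-3 itself lay 1.66 from a flat pattern. The acidic chitinase A2721, a secreted enzyme that cuts chitin, was the brightest of the 5, with 14167 and 9664 in stressed pools against 18007 and 20866 in unstressed pools. Its stressed pools differed 1.47-fold, more than those of ferritin-3.

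The 5 nearest to ferritin-1 were far closer, at distances of 0.02 to 0.06, and ferritin-1 lay 0.34 from a flat pattern. They were a brassinosteroid receptor (A42246), a zinc finger protein (A50280), a WRKY transcription factor (A209604), a CC-NBS-LRR resistance protein (A152204) and the cytochrome P450 CYP83E8 (A41633). Their log2 differences were −0.35 to −0.29, and none passed limma's threshold (adjusted p = 0.81 to 0.97). In brightness they ranged from rank 741 to rank 3638.

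**Figure D3:**
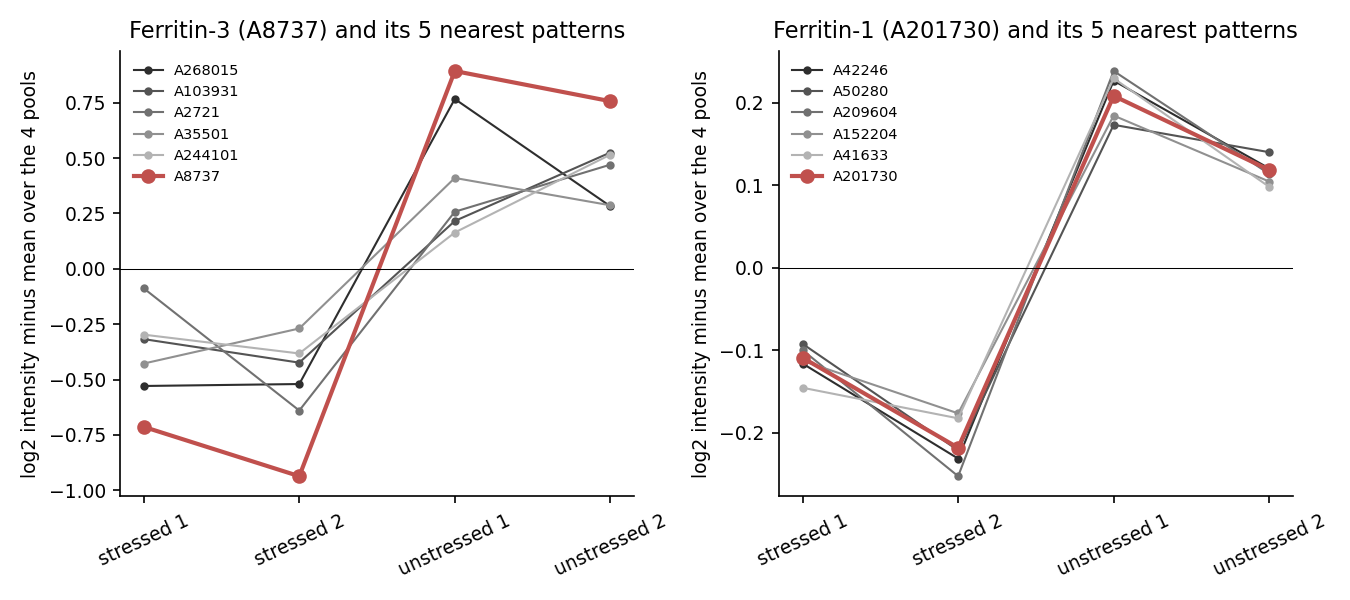
Log2 RMA intensity minus each transcript's own mean over the 4 pools, for ferritin-3 and ferritin-1 (red) and the 5 transcripts nearest to each (grey). No neighbour of ferritin-3 spans its range, whereas the neighbours of ferritin-1, at distances of 0.02 to 0.06, run alongside it, and the vertical scales of the panels differ.

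Transcripts for taking up and moving iron and related metals had log2 differences from −0.70 to 0.28. Of 18 in this list, limma called none higher and none lower, against 0.925% and 0.025% of all 4000 transcripts. Of the 18, 2 had an unadjusted p under 0.05, against 5.5% of all transcripts. The median log2 difference was −0.10, against −0.04 over all transcripts, with 12 members negative and 6 positive. Over all transcripts 60.8% were negative. Both stressed pools lay below both unstressed pools in 4 of the 18, against 19.5% of all transcripts. The median was 0.02 without unstressed replicate 2. The list holds 13 oligopeptide transporters, a family that in Arabidopsis includes carriers of iron chelates as well as of peptides, and the descriptions do not tell these apart. One of them (A35501) had the lowest difference of the list, with 4484 and 5004 in stressed pools against 8016 and 7359 in unstressed pools, 1.62-fold lower (limma adjusted p = 0.19). The metal transporter NRAMP3 (A120834), which in Arabidopsis releases iron from the vacuole, had 999 and 992 in stressed pools against 1296 and 1241 in unstressed pools (log2 difference −0.35, limma adjusted p = 0.71). Its groups did not overlap, and its difference was close to that of ferritin-1. The zinc transporter A10597 was at 0.28, the oligopeptide transporters A34285, A31948 and A98530 at −0.28, −0.17 and 0.19, each with a limma adjusted p of 0.99. A zinc and iron transporter (A43715), named here after its value was seen for its description, was at 0.11 (95% confidence interval −0.45 to 0.66).

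Of 36 transcripts matched by terms for proteins that use iron as a cofactor, limma called none. Over all transcripts 0.925% were called higher and 0.025% lower. Of the 36, 1 had an unadjusted p under 0.05, against 5.5% of all transcripts. The list had a median log2 difference of −0.04 and 19 members negative, against 60.8% negative over all transcripts. The median was 0.05 without stressed replicate 2 and 0.06 without unstressed replicate 1. The list is made up largely of 21 lipoxygenases, which carry a non-haem iron, with components of the respiratory chain, ferredoxins and haem peroxidases. The terms also matched nitrate and sulfite reductases, cytochrome c biogenesis transcripts and a transcript described as cytochrome c oxidase copper (A64551). Not every member need therefore use iron. Nor is the list a full set of iron proteins, as its terms left out cytochromes P450 and iron superoxide dismutases. A haem peroxidase (A2039) was at 8458 and 7816 in stressed pools, above 6437 and 6390 in unstressed pools, a log2 difference of 0.34 (limma adjusted p = 0.78). Ubiquinol-cytochrome c reductase (A16249), of complex III, was at 0.48, the lipoxygenases A102163 and A1769 at 0.37 and 0.50, and subunit 1 of cytochrome c oxidase (A76199) at −0.24. A cytochrome c biogenesis transcript (A332001) was at −0.35. These 5 had a limma adjusted p of 0.99 each. Ferredoxin-1 (A812), the soluble electron carrier of the plastid with an iron-sulfur cluster, was chosen after its value was seen because it shares the organelle with ferritin. It had 31255 and 22326 in stressed pools against 36091 and 25098 in unstressed pools, with overlapping groups (log2 difference −0.19, 95% confidence interval −0.85 to 0.47).

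Metal-binding transcripts, mostly heavy metal ATPases that pump copper, zinc and similar ions across membranes, had the narrowest range. None of 12 was called, against 0.925% called higher and 0.025% lower over all transcripts. None had an unadjusted p under 0.05, against 5.5% of all transcripts. The log2 differences of the 12 ran from −0.13 to 0.12 with a median of −0.04, or 0.08 without stressed replicate 1. The copper chaperone A4020 lay between the stressed and unstressed levels of ferritin-3 in brightness, with 13615 and 14504 in stressed pools against 16296 and 14338 in unstressed pools, and its groups overlapped (−0.12). The ATPases A80153, A18244, A35230 and A50580 were at −0.13, −0.10, 0.12 and −0.08, and the transport and detoxification protein A168109 at −0.12.

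A further list held enzymes that remove hydrogen peroxide and superoxide, the partners of iron in radical formation. Its terms also matched glutathione reductases, a dehydroascorbate reductase and a monodehydroascorbate reductase, which restore glutathione and ascorbate. None of its 28 members was called. Over all transcripts 0.925% were called higher and 0.025% lower. Of the 28, 1 had an unadjusted p under 0.05, against 5.5% of all transcripts. The median log2 difference of the list was −0.04, with 16 members negative, against 60.8% negative over all transcripts. This median was −0.13 without stressed replicate 1 and 0.01 without unstressed replicate 2. A peroxisomal ascorbate peroxidase (A25591), which reduces hydrogen peroxide with ascorbate, was lowest, at 1634 and 1465 in stressed pools against 2082 and 2176 in unstressed pools (−0.46, limma adjusted p = 0.49). An iron superoxide dismutase (A2614), an enzyme that itself carries iron, was at −0.20. Glutathione reductase (A115894) was at −0.24, dehydroascorbate reductase (A36553) at −0.23, a Cu/Zn superoxide dismutase (A24388) at −0.11 and a catalase (A124) at 0.40, each with a limma adjusted p of 0.99.

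Ferritin-3 is described after a plastid protein, so the transcripts described by the plastid or by photosynthesis were taken as a list. Of 39, none was called, against 0.925% called higher and 0.025% lower over all transcripts. In this list 1 had an unadjusted p under 0.05, against 5.5% of all transcripts. The log2 differences of the 39 ran from −0.40 to 0.17 with a median of −0.03, or 0.02 without unstressed replicate 2. Both stressed pools lay below both unstressed pools in 10 of the 39, against 19.5% of all transcripts. The members with the smallest p were a chloroplast-targeted copper protein (A144775, −0.40, limma adjusted p = 0.78), a senescence-inducible chloroplast protein (A118699, −0.39) and a chloroplast pentose phosphate transporter (A26202, −0.26). Of the 3 leaf markers, taken here to check the tissue, the photosynthesis transcripts A61 and A73 were bright in every pool. A chlorophyll a/b binding protein (A61) had 61684 and 63243 in stressed pools against 61888 and 63137 in unstressed pools, and photosystem II PsbR (A73) had 29452 and 29096 against 30572 and 29585. The third, a ribulose-phosphate 3-epimerase (A526993), was near the lowest intensity of the arrays, at 48.8 and 52.7 in stressed pools against 49.9 and 48.1 in unstressed pools. The summed intensity of the 3 leaf terms was 91185 and 92391 in stressed and 92510 and 92769 in unstressed pools. The intensities of A61 were close to the top of the scale, which may hide a difference.

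Of the lists for signals known to act on ferritin in other plants, 1 held a called transcript. Abscisic acid raises ferritin transcripts in maize, and of the 8 transcripts for abscisic acid, 1 rose and 7 were negative, against 0.925% called higher and 60.8% negative over all transcripts. The median log2 difference was −0.14, but it was −0.03 when unstressed replicate 1 was left out and −0.27 when unstressed replicate 2 was. With the dimmest 25% left out it was −0.00043, which is the value of an abscisic stress ripening-like transcript (A87). A87 had 64134 and 63914 in stressed pools against 64232 and 63854 in unstressed pools. That is close to the top of the scale, which may hide a difference, and A87 is counted among the 7 negative members. The 1 that rose was abscisic acid 8'-hydroxylase (A48201), which breaks this hormone down. It had 2206 and 2466 in stressed pools against 487 and 524 in unstressed pools, 4.62-fold higher (limma adjusted p = 0.0059), and it was not called without stressed replicate 1 or without stressed replicate 2. A dehydrin (A43642), a protective protein of drying tissue, was at −0.35 and a 9-cis-epoxycarotenoid dioxygenase (A515888), of the family that makes the hormone's precursor, at −0.25. Phosphate starvation raises a ferritin transcript in Arabidopsis, and of 17 phosphate-related transcripts, mainly acid phosphatases, none was called and 2 had an unadjusted p under 0.05. Over all transcripts 0.925% were called higher, 0.025% were called lower and 5.5% had such an unadjusted p. The purple acid phosphatases A376916, A9617 and A229538 were at 0.53, −0.43 and 0.36 (limma adjusted p = 0.49, 0.81 and 0.99). The terms also matched the phosphatidic acid phosphatases A467019 and A85238, which act on lipids. The only transporter matched was a chloroplast pentose phosphate transporter (A26202). Not every member need therefore bear on phosphate supply.

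A ferritin transcript of Arabidopsis has been linked to the circadian clock, and 8 transcripts made up the circadian list. None was called, against 0.925% called higher and 0.025% lower over all transcripts. None had an unadjusted p under 0.05, against 5.5% of all transcripts. The median log2 difference of the list was −0.14. It was 0.19 without stressed replicate 2, 0.37 without unstressed replicate 1 and −0.42 without unstressed replicate 2. One LATE ELONGATED HYPOCOTYL transcript (A353), of a clock factor that peaks around dawn, had 17268 and 7174 in stressed replicates 1 and 2, against 24736 and 7480 in unstressed replicates 1 and 2. It was high in replicate 1 and low in replicate 2 of both groups, by 2.41-fold in stressed and 3.31-fold in unstressed pools. The other two transcripts of that description (A3704 and A8698), chosen after their values were seen, showed the same order, with replicate 1 above replicate 2 by 2.44-fold to 3.23-fold in stressed and 2.80-fold to 3.52-fold in unstressed pools. Ferritin-3 was also slightly higher in replicate 1 than in replicate 2, but by 1.17-fold in stressed and 1.10-fold in unstressed pools, against 3.14-fold between the groups. Ferritin-1 was higher in replicate 1 by 1.08-fold in stressed and 1.06-fold in unstressed pools. The part of time of day in the difference of ferritin-3 was not tested. The CONSTANS-like zinc finger transcripts A327009 and A23006 were at −0.15 and 0.13. A23006 ran in the other order, with 1344 and 1542 in stressed replicates 1 and 2 against 1104 and 1564 in unstressed replicates 1 and 2.

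**Figure D4:**
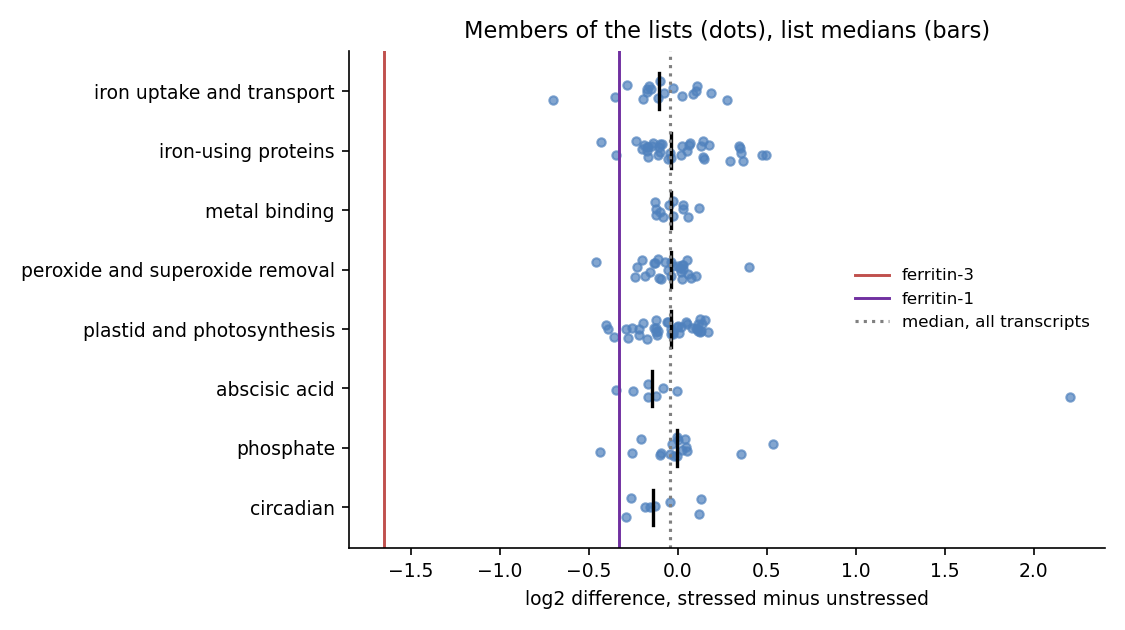
Log2 difference, stressed minus unstressed, of each member of the 8 lists (dots), with the list medians as black bars, the median of all transcripts as a dotted line and the ferritins as red (ferritin-3) and purple (ferritin-1) lines. The lowest list member is the oligopeptide transporter A35501 at −0.70, and the list medians lie between −0.14 and −0.001. Ferritin-3, at −1.65, was chosen for its difference, so its place below the lists is no result about them.

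Markers of organs in which ferritin can be abundant were examined as well. Among 6 nodule-related transcripts A268015 stood apart at −1.05 as given above, while the other 5 were between −0.05 and 0.10. The summed intensity of all 6, A268015 included, was 12044 and 12129 in stressed pools and 11703 and 12418 in unstressed pools. No leghemoglobin, the oxygen carrier of nodules, was found by its search term, which matched only a ferric leghemoglobin reductase (A2079, 0.10), a member also of the iron uptake list through the word ferric. No description matched the terms for seed storage proteins. The 44 xylem transcripts had a summed intensity of 223859 and 231262 in stressed and 251056 and 230599 in unstressed pools, with a median log2 difference of −0.08. The 42 transcripts matched by the term ribosomal protein, a marker of general RNA state, were at 234226 and 244138 in stressed and 193955 and 243739 in unstressed pools. Their median log2 difference was 0.11. Over all transcripts 60.8% were negative, against 8 of these 42, and 34 of the 42 were positive. By its description 1 of them is a kinase and not a ribosomal protein, the ribosomal protein S6 kinase A132084 (−0.35). None of these marker transcripts was called, against 0.925% called higher and 0.025% lower over all transcripts. The part of these markers in the ferritin differences was not tested.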

How the data were processed

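RNA of 4 pools of koa seedlings was labelled with Cy3 and hybridised to 1-colour NimbleGen arrays, 1 pool per array, per the labels' protocols. The authors deposited 1 intensity per transcript and array, and per the submitters' processing notes the tool was RMA, with version and settings not given in the sources used here. RMA corrects background, equalises the arrays and summarises up to 18 probes per transcript, per the file headers. It would remove a change common to most transcripts. The deposited series table equals the array files (largest difference 0).

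Groups follow the sample titles. Intensities were taken to log2 with nothing added and no filter, and all 4000 transcripts entered a limma fit (lmFit, eBayes) by group with no further term. Versions were limma 3.58.1 and R 4.3.3. Limma's two-sided p-values were adjusted over the whole table (Benjamini-Hochberg), and those under 0.05 count as called. Confidence intervals are limma's, unadjusted. The fit was tested on simulated data. The number of arrays limits the precision: a permutation of 2 against 2 arrays could not pass the threshold, so none was used.

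The ferritins and lists were chosen with earlier results of these data known. Lists are search terms applied to the descriptions, with ferritins left out. Named were the ferritins, the 5 nearest patterns of each, the 10 lowest differences, called list members, up to 6 members by smallest p in the iron, metal and peroxide lists, and up to 3 in the others. Alternatives were leaving out each array, equal medians, quantile normalization, adding 50, leaving out the dimmest 25%, a trended robust prior, the replicate number as a block and the series table.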

Additional observations from a re-analysis of the deposited data

How the results depend on the processing

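The log2 difference of ferritin-3 was negative under every alternative run, from −1.76 to −1.54, and that of ferritin-1 from −0.38 to −0.24, the smallest with 50 added to each intensity (−0.2437, at rank 351), an offset that shrinks dim differences by construction. Ferritin-1 is among the dimmest 25% and has no value without them. Leaving out 1 array put ferritin-3 at rank 1 to 3 and ferritin-1 at rank 268 to 474 from the lowest, with 8 to 26 transcripts called higher, 0 to 1 called lower and 0 to 1 abscisic acid members called. The lone pool is then assumed to vary like the other group, and there are fewer samples. Over these 4 fits the medians were −0.09409 to 0.01615 for iron uptake and transport, −0.08863 to 0.0638 for iron-using proteins and −0.1267 to 0.01045 for peroxide and superoxide removal. The replicate numbers are shared by the groups but not stated to mark anything, with 2 pairs. Replicate 1 minus replicate 2 correlated at r = 0.51 between the groups over transcripts, which are not independent. With the replicate block, 123 transcripts were called higher and 16 lower. Ferritin-3 was among the 16, but nothing is read from this, as it was chosen for its difference. Of the iron uptake members 1 was called, the oligopeptide transporter A35501 (limma adjusted p = 0.0077). The cause of these changes was not tested. Ferritin-1 lay near the dim end of the scale with no detection call, which limits what its difference can show.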
